A study of Homo sapiens with 8 samples.

Results

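The host long non-coding RNAs of small nucleolar RNAs (snoRNAs) were examined through 10 listed genes, GAS5, SNHG1, SNHG5, SNHG6, SNHG7, SNHG8, SNHG12, SNHG15, SNHG16 and ZFAS1, of 26830 gene symbols in the deposited table. They were chosen by name, and footprints on them were compared with input RNA in 8 libraries from 4 cultures. The cells were labelled as HEK293T, a human embryonic kidney line, and came from 1 clone that carried Cas9, the nuclease that a guide RNA directs to a gene. Cultures sgMETTL16-1, sgMETTL16-2 and sgMETTL16-3 each carried a different lentiviral guide against METTL16, an enzyme that methylates adenosines in the U6 spliceosomal RNA and in MAT2A mRNA, and the culture sgNS carried a negative control guide. Selection, the same for all 4, lasted at least 1 week, with 10 µg/ml of blasticidin and 2 µg/ml of puromycin, and ribosomes were stalled in every culture with 100 µg/ml of cycloheximide for 5 min before harvest. Each culture gave a library of ribosome-protected fragments (footprints, 17 to 34 nt) and a library of input RNA (labelled ribozero, a removal of ribosomal RNA), so that sgMETTL16 had 3 libraries of each kind and sgNS had 1. The series asked how METTL16 affects translation.

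Most human snoRNAs are not made from genes of their own but are cut from introns of a longer transcript, the host. Box C/D snoRNAs guide ribose methylation and box H/ACA snoRNAs guide pseudouridylation, mostly of ribosomal RNA. The spliced exons of a non-coding host are exported, can be engaged by ribosomes at short open reading frames, and are often removed by nonsense-mediated decay, which needs translation. Many host RNAs, like the mRNAs of ribosomal proteins, begin with a run of pyrimidines at the 5′ end (a TOP sequence), which couples translation to growth signals. GAS5 was named for its rise in growth-arrested cells. SNHG1 was the first described host whose exons encode no protein, and ZFAS1 is transcribed antisense to the start of ZNFX1.

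The starts of the genes are shown because the pyrimidine run of a TOP sequence would begin there. They are printed for the 8 of 10 genes with a promoter sequence at hand (GRCh38.p14), all but SNHG6 and SNHG15. Each line holds 80 bases on the gene's strand, 40 before the annotated first base and 40 from it, so that base 41 is the annotated first base. Capitals mark the longest unbroken run of C and T between 10 bases before and 20 bases from the start and, further upstream, the letters TATAA between 40 and 21 bases before it.
GAS5: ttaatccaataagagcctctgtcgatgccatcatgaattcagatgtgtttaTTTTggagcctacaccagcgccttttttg
SNHG1: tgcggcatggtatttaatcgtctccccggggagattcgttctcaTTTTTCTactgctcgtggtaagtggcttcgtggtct
SNHG5: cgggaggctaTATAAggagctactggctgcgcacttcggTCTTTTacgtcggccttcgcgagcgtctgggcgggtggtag
SNHG7: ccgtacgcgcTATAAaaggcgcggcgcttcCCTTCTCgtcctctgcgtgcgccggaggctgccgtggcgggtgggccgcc
SNHG8: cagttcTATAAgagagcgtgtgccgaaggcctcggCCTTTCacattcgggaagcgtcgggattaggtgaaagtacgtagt
SNHG12: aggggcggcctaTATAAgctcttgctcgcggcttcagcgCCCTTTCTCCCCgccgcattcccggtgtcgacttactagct
SNHG16: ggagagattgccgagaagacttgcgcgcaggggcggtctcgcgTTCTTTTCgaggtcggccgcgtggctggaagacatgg
ZFAS1: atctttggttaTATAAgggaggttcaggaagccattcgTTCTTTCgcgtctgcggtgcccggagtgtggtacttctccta

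The stretches lie on GRCh38.p14 at chr1:173869006-173869085 (GAS5, minus strand), chr11:62855846-62855925 (SNHG1, minus), chr6:85678694-85678773 (SNHG5, minus) and chr9:136728145-136728224 (SNHG7, minus). The others lie at chr4:118278722-118278801 (SNHG8, plus), chr1:28581834-28581913 (SNHG12, minus), chr17:76557724-76557803 (SNHG16, plus) and chr20:49278602-49278681 (ZFAS1, plus). An annotated first base of C followed by at least 4 more pyrimidines was present in SNHG5, SNHG12 and ZFAS1, which is 3 of 8 (37.5%), against 4.07% of all 35116 promoters in the table. The protein-coding snoRNA hosts had it in 16 of 40 (40%) and other host lncRNAs in 4 of 16 (25%). A run of 5 or more pyrimidines anywhere in the 30-base window was in 7 of 8, all but GAS5, but also in 48.9% of all promoters. The letters TATAA, searched after the sequences had been read, were on the gene's strand in 5 of 8 (62.5%), against 3.77% of all promoters, 6 of 40 protein-coding hosts (15%) and 1 of 16 other host lncRNAs (6.25%). On the opposite strand TATAA was present in ZFAS1 alone, where it overlapped the match on the gene's strand, and in 1.59% of all promoters. The promoter table holds 1 start per gene, and for SNHG12 and ZFAS1 that start lies inside the gene's whole annotated span (chr1:28578538-28582983 and chr20:49278178-49289260). Which start these cells use was not tested.

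The deposited values are TPM, a share of transcripts scaled by length, and come without the number of reads behind them. Footprint libraries were sparse, with 20095 to 22468 of 26830 symbols listed at 0, against 8025 to 8848 in the input libraries. METTL16 itself stood at 4.72, 5.25 and 4.16 TPM in the sgMETTL16 inputs and at 5.31 TPM in the sgNS input (limma adjusted p = 0.482), and its footprints were listed at 0 in all 3 sgMETTL16 libraries and at 19.8 TPM in sgNS, so the labels were not checked by loss of its mRNA. The cell type went against the label in part. Every input held each of 12 hepatocyte markers at no less than 10 TPM. Of 12 genes known from HEK293 cells, 6 stayed below 1 TPM in each input, and NEFL, NEFM, VIM and GATA3 among them were listed at 0. The rest of that list had input in every culture. KRT8 was at 354 to 796 TPM, KRT18 at 309 to 537 TPM, and NES, ENO2, CDH2 and LIN28B at 3.17 to 12.1 TPM. VIM had footprints of 85.2, 78.7 and 43.3 TPM in sgMETTL16 and 188 TPM in sgNS all the same, so a 0 in an input column does not show that the RNA was absent. Summed hepatocyte markers ranged from 5928 to 8928 TPM in sgMETTL16 inputs and stood at 4826 TPM in the sgNS input, and none of the 12 passed between the guides in the input (none had an unadjusted p under 0.05). The part of these differences in the results was not tested.

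In the input, SNHG16 was the most abundant host RNA, and SNHG15 was listed at 0 throughout. SNHG16, host of 3 box C/D snoRNAs, reached 157 TPM in sgMETTL16-1, 136 TPM in sgMETTL16-2 and 84.8 TPM in sgMETTL16-3 (126 ± 37.1, SD, n = 3) and 109 TPM in sgNS. In all 4 cultures it stood above SNHG5, the next in order, and their ranges over cultures were apart. SNHG5, host of SNORD50A and SNORD50B, was at 23.99, 46.0 and 18.8 TPM in the sgMETTL16 cultures (29.6 ± 14.4, SD, n = 3) and at 32.4 TPM in sgNS. SNHG7, a host of H/ACA snoRNAs, varied least in TPM as deposited, though not after centring, at 22.6, 23.6 and 21.3 TPM in sgMETTL16 (22.5 ± 1.16, SD, n = 3) and 22.5 TPM in sgNS. ZFAS1, host of the SNORD12 family, averaged 20.2 ± 7.67 TPM in sgMETTL16 (SD, n = 3) and was at 15.4 TPM in sgNS. As the sources used here give no strand setting, reads of ZFAS1 and of ZNFX1 in their overlap cannot be told apart.

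GAS5, host of 10 box C/D snoRNAs, was at 18.6, 24.2 and 10.5 TPM in the sgMETTL16 inputs (17.8 ± 6.88, SD, n = 3) and at 13.2 TPM in sgNS. SNHG8, host of the H/ACA RNA SNORA24, averaged 15.6 ± 4.42 TPM in sgMETTL16 (SD, n = 3) against 19.7 TPM in sgNS. SNHG1, host of 8 box C/D snoRNAs, averaged 10.6 ± 3.95 TPM in sgMETTL16 (SD, n = 3) against 7.25 TPM in sgNS, SNHG6, host of SNORD87, averaged 9.16 ± 5.08 against 11.4 TPM, and SNHG12, host of both snoRNA classes, averaged 7.65 ± 1.79 against 8.95 TPM. From SNHG5 down to SNHG12, each gene's range over the 4 inputs overlapped that of the next. Within cultures, GAS5 stood above SNHG1 in 4 of 4, and the other neighbours from SNHG5 down to SNHG6 kept their order in 2 or 3 of 4. Genes farther apart did not overlap in some cases, as SNHG5 and SNHG7, which stood above SNHG12 in every input. SNHG15, host of SNORA9, was listed at 0 in all 4 inputs, which, as for VIM, does not show that it was absent. In bulk libraries such as these, fewer cells with an RNA and less RNA per cell cannot be told apart.

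**Figure D1:**
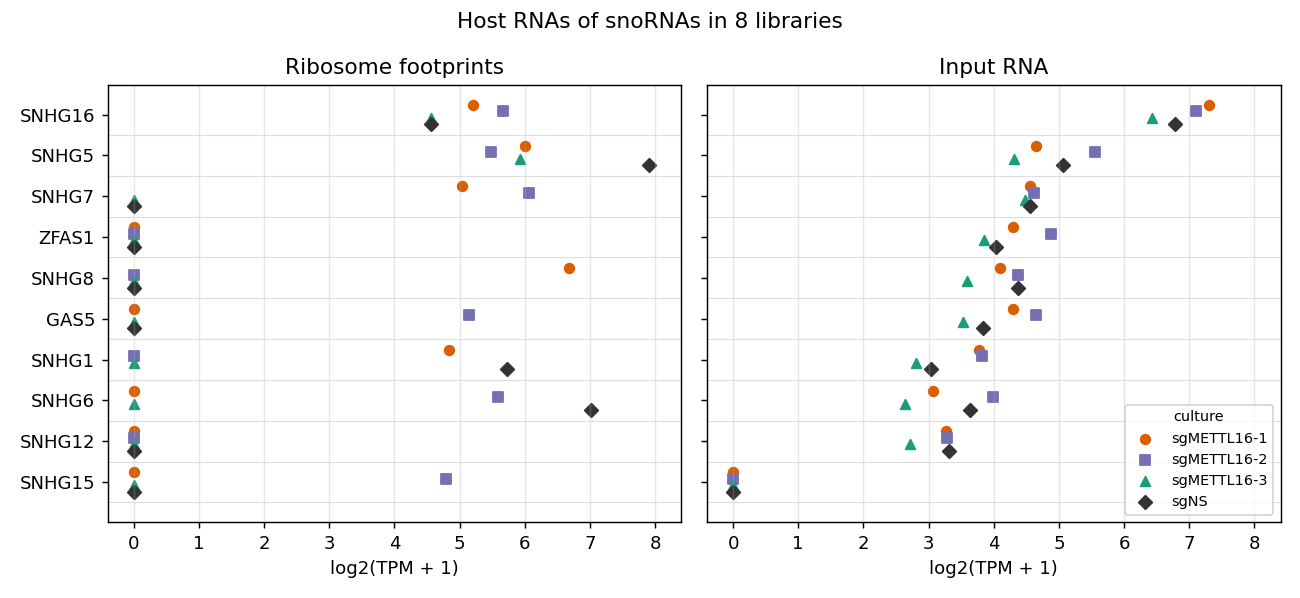
Levels of the 10 host RNAs in footprint libraries (left) and input libraries (right), as log2(TPM + 1), with 1 point per culture and genes ordered by mean input level. Input points lie close together for each gene, while footprints are at 0 in many libraries and above 0 in all 4 for SNHG16 and SNHG5 alone.

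In the footprints, SNHG16 and SNHG5 were the only host RNAs above 0 in all 4 libraries. SNHG16 stood at 35.8, 49.6 and 22.5 TPM in the sgMETTL16 footprints and 22.6 TPM in the sgNS footprints. SNHG5 stood at 62.9, 43.6 and 59.8 TPM in the sgMETTL16 footprints and at 239 TPM in the sgNS footprints, the highest footprint value of any listed host. SNHG12 and ZFAS1 were listed at 0 in all 4. The other hosts were seen in some libraries only. SNHG1 was at 27.5 TPM in sgMETTL16-1 and 52.1 TPM in sgNS, SNHG6 at 47.0 TPM in sgMETTL16-2 and 129 TPM in sgNS, and SNHG7 at 31.9 TPM in sgMETTL16-1 and 66.4 TPM in sgMETTL16-2. Seen in a single library were GAS5 (34.5 TPM, sgMETTL16-2), SNHG8 (102 TPM, sgMETTL16-1) and SNHG15 (26.9 TPM, sgMETTL16-2), the last with no input signal.

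Where a host was seen in at least 2 footprint libraries, its footprint values could be written as small whole multiples of a step set for that gene. Over genes detected both in sgNS and in a given sgMETTL16 footprint library, 1 ratio recurred: the sgNS value was 1.89 times that of sgMETTL16-1, 2.73 times that of sgMETTL16-2 and 2.00 times that of sgMETTL16-3 for 23.6% to 33.8% of genes (within 0.02 in the natural log). Rescaled by those ratios, the values of each of the 5 hosts seen in at least 2 footprint libraries were whole-number multiples of that gene's step within 0.718% (a match was allowed up to 5%). The ratios came from these same libraries, so a gene at the recurring ratio matches by construction. The smallest value was tried as 1 to 6 steps, which makes a match easy. The share of all genes that match was not computed, so the matches are a description and not a result about the hosts. GAS5, SNHG8 and SNHG15, each seen in 1 library, could not be examined in this way. SNHG16 took 3, 6 and 2 steps in sgMETTL16-1, sgMETTL16-2 and sgMETTL16-3 and 1 step in sgNS. SNHG5 took 1, 1 and 1 in the sgMETTL16 libraries and 2 in sgNS. SNHG1 took 1 step in sgMETTL16-1 and 1 in sgNS, SNHG6 took 1 in sgMETTL16-2 and 1 in sgNS, and SNHG7 took 1 in sgMETTL16-1 and 3 in sgMETTL16-2. The steps are the smallest set of whole numbers for each gene and may each stand for more than 1 read, so they are not read counts. The 239 TPM of SNHG5 in sgNS is 2 steps, where each sgMETTL16 library holds 1.

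Footprints were compared with input across the 4 cultures by limma on log2(TPM + 1) after scaling each library to the genes above 0 in all 8, so that 0 stands for the median of those genes. SNHG16, ZFAS1, SNHG12 and GAS5 were called lower in footprints than in input, and none of the 10 was called higher. These 4 of 10 stand beside 40.3% of all 11233 genes tested that were called lower, 4.11% called higher and 44.4% called in either direction, so the hosts' share is near that of all genes and is not a result about the hosts. The direction of this background depends on the scaling: 4530 genes were lower and 462 higher here, but 255 lower and 1055 higher when centred on the median tested gene. The median log2 difference was -2.68 over the 10 hosts and -1.58 over all genes. Of all protein-coding genes 40.2% were lower (median -1.58), and of all lncRNAs 51.3% (median -2.004). Of the genes called in either direction, 38.7% were listed at 0 in all 4 footprint libraries, as SNHG12 and ZFAS1 were.

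SNHG16 was the only called host above 0 in every library. Its footprint to input ratio, in TPM as deposited, was 0.228, 0.364 and 0.266 in sgMETTL16-1, sgMETTL16-2 and sgMETTL16-3 and 0.207 in sgNS. The ratio was below 1 in all 4 cultures and footprint and input values did not overlap. The share of all genes with such a separation was not computed, and on TPM as deposited the median log2 difference over all genes was -0.93. The log2 difference was -2.84 (SE 0.41, limma adjusted p = 0.00128), -1.91 on TPM as deposited, and -0.33 (adjusted p = 0.79), no longer passing, when centred on the median gene. SNHG5 showed the opposite order in 3 of 4 cultures, with ratios of 2.62, 0.947 and 3.18 in the sgMETTL16 cultures and 7.37 in sgNS. Its log2 difference was 0.50 (SE 0.42, limma adjusted p = 0.378), which did not pass.

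SNHG12 and ZFAS1, at 0 in all footprints, passed with limma adjusted p = 0.000102 and 8.61e-05, and no fold is given for them. GAS5 passed narrowly (log2 difference -3.38, SE 1.09, limma adjusted p = 0.0411). It did not pass on TPM as deposited (-2.79, limma adjusted p = 0.141), rescaled over protein-coding genes (-4.40, adjusted p = 0.099), with a pseudocount of 0.1 (-5.82, adjusted p = 0.0535), or without sgMETTL16-1, sgMETTL16-3 or sgNS (-2.96, -3.13 and -2.88, adjusted p = 0.154, 0.177 and 0.154). SNHG8 was at -3.04 (limma adjusted p = 0.131) and passed without sgMETTL16-1 (-4.60, adjusted p = 0.0039), the library that held all its footprints. SNHG7 (-2.52), SNHG1 (-1.52) and SNHG6 (-0.98) did not pass, and SNHG15 was at 1.06 from its single footprint value (limma adjusted p from 0.165 to 0.572). Centred on the median tested gene, which is at or near 0 in some footprint libraries, the median of all genes moved to 0.64, none of the 4 hosts passed, SNHG1 (0.86) and SNHG6 (1.40) turned positive, and SNHG5 was called higher (3.01, limma adjusted p = 0.0489).

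**Figure D2:**
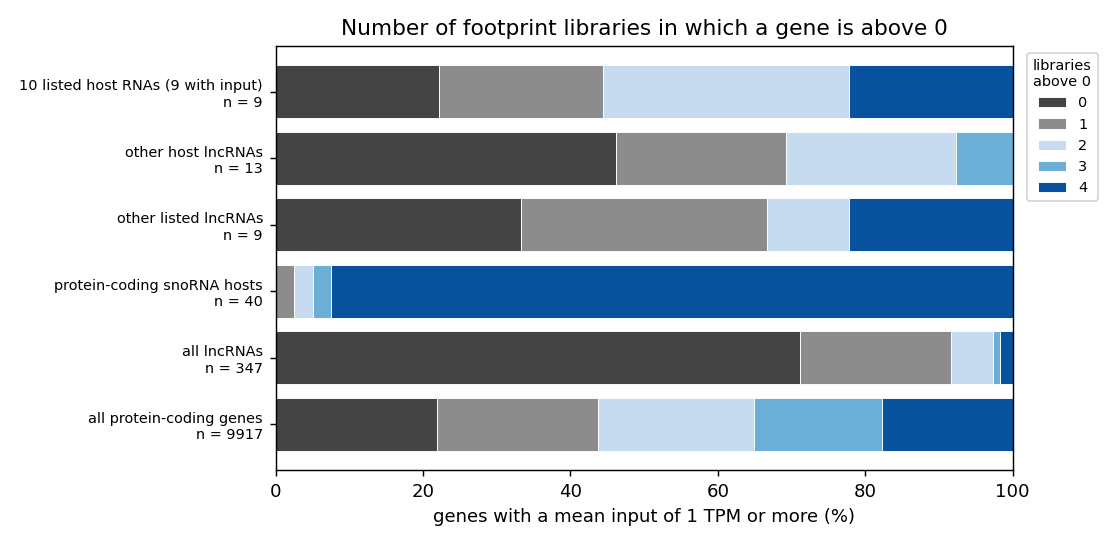
Share of genes by the number of footprint libraries (0 to 4) in which they were above 0, among genes with a mean input of 1 TPM or more; each bar is a gene group with its number of genes. Of 9 listed hosts with input, 2 were seen in no footprint library and 2 in all 4, against 37 of 40 protein-coding snoRNA hosts in all 4 and 247 of 347 lncRNAs in none.

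The shares of genes never seen in footprints are given side by side, and the differences between them were not tested. Among genes with a mean input of 1 TPM or more, 2 of 9 listed hosts (22.2%) were at 0 in all 4 footprint libraries, against 71.2% of 347 lncRNAs and 21.9% of 9917 protein-coding genes. With a mean input of 10 TPM or more it was 1 of 6 listed hosts, 41.7% of 36 lncRNAs and 10.2% of 3925 protein-coding genes. Other host lncRNAs were at 0 throughout in 6 of 13 cases and none was seen in all 4 libraries. In C6orf48 (also SNHG32), the most abundant of those, footprints were at 36.8, 50.9 and 0 TPM in the sgMETTL16 cultures and 0 in sgNS, with inputs of 55.5, 63.5 and 47.9 TPM and 56.6 TPM in sgNS. SNHG25 and SNHG19, with mean inputs of 34.9 and 34.3 TPM, were listed at 0 in all 4 footprint libraries, and DANCR, with a mean input of 40.5 TPM, was at 36.3 TPM in sgMETTL16-1 and 68.8 TPM in sgNS. Of 13 tested other host lncRNAs, 6 were lower in footprints and none higher (median -2.89). C6orf48 was among them (-3.85, limma adjusted p = 0.0478) but did not pass with any 1 culture left out (adjusted p from 0.0617 to 0.186), with the culture as a replicate block (0.0674), with pseudocounts of 0.1 and 0.5 (0.0878 and 0.0611), or under any of the 3 other scalings (0.149 to 0.288).

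The mRNAs that carry snoRNAs in their introns were seen in most footprint libraries. Of 40 protein-coding hosts, mostly genes for ribosomal proteins and translation factors, 37 (92.5%) were above 0 in all 4 footprint libraries. Their median log2 difference was -0.08, with 8 higher and 6 lower. RPS2 (328, 296 and 218 TPM in sgMETTL16 footprints and 436 TPM in sgNS footprints, mean input 1558 TPM) and EEF2, the translocation factor (544, 417 and 379 TPM, 452 TPM in sgNS footprints, mean input 1012 TPM), were lower in footprints, at log2 differences of -3.28 and -2.13. Centred on the median gene both calls ended, with RPS2 at -0.75 and EEF2 at 0.40 (limma adjusted p = 0.422 and 0.695). RACK1 and RPL3 were at -0.88 and -0.78 and did not pass (limma adjusted p = 0.0585 and 0.0727). These 4 were more abundant in the input than any listed host, and among protein-coding genes the share at 0 in all footprints was 21.9% from 1 TPM and 10.2% from 10 TPM of mean input. The part of abundance in the difference between coding and non-coding hosts was not tested. Other lncRNAs gave 7 lower and none higher of 10 tested. MALAT1, a nuclear RNA of mean input 139 TPM, close to SNHG16, was at 27.4, 35.6 and 48.5 TPM in sgMETTL16 footprints and 64.8 TPM in sgNS footprints, a log2 difference of -2.54 (SE 0.48, limma adjusted p = 0.00497) beside -2.84 for SNHG16. NORAD was at -2.31, NEAT1 at -4.77 and TUG1 at -2.96, and all 3 passed (limma adjusted p = 0.00786, 0.000322 and 0.00922). On TPM as deposited NORAD (-1.39, adjusted p = 0.127) and TUG1 (-2.27, adjusted p = 0.0659) did not pass, and over protein-coding genes MALAT1 did not either (-1.58, adjusted p = 0.0706). Centred on the median gene none of the 4 passed, with MALAT1 at -0.02, NORAD at 0.18, NEAT1 at -2.61 and TUG1 at -0.70 (adjusted p = 0.99, 0.916, 0.0668 and 0.55).

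The snoRNAs cut from these hosts were in a different position. Of the 35 listed, all lay inside the span of their host in RefSeq, and together they held 9.55%, 13.45% and 11.7% of footprint TPM in sgMETTL16-1, sgMETTL16-2 and sgMETTL16-3 and 7.57% in sgNS. Their summed input was 509, 473 and 422.5 TPM in the sgMETTL16 cultures and 383 TPM in sgNS. The hosts themselves summed to 260, 268 and 82.3 TPM in the sgMETTL16 footprints and 443 TPM in the sgNS footprints, and to 286, 315 and 177 TPM in the sgMETTL16 inputs and 240 TPM in the sgNS input. Of 32 snoRNAs tested, 13 were higher in footprint libraries and 7 lower, beside the 4.11% and 40.3% of all genes and the 15% and 31% of all 300 snoRNAs tested. The filter was a mean of 1 TPM over all 8 libraries, so a snoRNA near 0 in the input was tested only if it had footprints. Among those called higher, SNORD31, SNORD30, SNORD87 and SNORD1B had mean inputs of 0.358, 0, 0.383 and 0.665 TPM, and their calls are not a result. The same holds for SNORD75 and SNORD50B, which at mean inputs of 1.66 and 1.04 TPM also passed the filter only through their footprints. SNORD77, SNORD1A and SNORD81, at 0 in all footprints, were not tested. All snoRNAs together held 19.8% to 39.9% of TPM in the sgMETTL16 footprints and 20.6% in the sgNS footprints. A snoRNA is not translated, and a footprint library can also hold fragments of RNAs that no ribosome carried, so these values are not a measure of translation.

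Counts are given for each class of snoRNA, and the difference between the classes was not tested. Of 28 box C/D RNAs, which are 60 to 126 bases long, 11 were above their input in all 4 cultures, 13 of 25 tested were higher in footprints, 5 were lower, and 8 of the 28 were at 0 in all 4 footprint libraries. The 13 include SNORD31, SNORD30, SNORD87, SNORD1B, SNORD75 and SNORD50B, which passed the filter only through their footprints. The 11 include SNORD31, SNORD87, SNORD1B, SNORD44 and SNORD75, each listed at 0 in at least 1 input, where any footprint value is above input. The share of all genes above input in all 4 cultures was not computed, and neither count is a result. Of 7 box H/ACA RNAs, 130 to 134 bases long, none was above its input in all 4 cultures, 5 were seen in at least 1 footprint library, and of 7 tested none was higher and 2 were lower. SNORD31, from SNHG1, was the most abundant, at 61720, 98857 and 32472 TPM in the sgMETTL16 footprints and 40049 TPM in the sgNS footprints, while its input was 0, 1.43 and 0 TPM in sgMETTL16 and 0 in sgNS. SNORD44, from GAS5, a common reference RNA in small-RNA assays, was at 11600, 6374 and 33677 TPM in the sgMETTL16 footprints and 4207 TPM in the sgNS footprints, and at 7.25 TPM or less in every input. SNORD31 and SNORD44 were chosen after their values were seen. SNORA17B from SNHG7 and SNORA24 from SNHG8, the most abundant in the input, were at 149, 152 and 145 TPM and at 105, 81.2 and 79.3 TPM in the sgMETTL16 inputs, at 113 and 85.7 TPM in the sgNS input, and listed at 0 in all footprints. SNORD12 from ZFAS1 was likewise listed at 0 in footprints, with a mean input of 26.0 TPM, and SNORA61 from SNHG12 was seen in the sgMETTL16-3 footprints alone (299 TPM). TPM of RNAs little longer than the 51-base reads rests on the length that the quantification assumed, so beside their hosts they are read only for whether they were seen, not for how much more or less of them there was.

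Hosts and their snoRNAs were not always seen in the same footprint libraries. Over 10 hosts and 4 footprint libraries there were 40 pairs of host and library. In 14 the host was listed at 0 while at least 1 of its snoRNAs was above 0, in 14 both were seen, in 3 the host alone, and in 9 neither. Of all genes with a mean input of 1 TPM or more, 44.4% to 64.7% were at 0 in a given footprint library. A host at 0 is therefore common, and these counts are not a result about the hosts. GAS5 was at 0 in sgMETTL16-3, where its snoRNAs summed to 48330 TPM, and SNHG1 was at 0 in sgMETTL16-2, where its snoRNAs summed to 116100 TPM. SNHG5 in sgNS was the reverse, with the host at 239 TPM and both its snoRNAs at 0. How reads were shared between a snoRNA and any host transcript that retains its intron is not stated in the labels and was not tested.

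**Figure D3:**
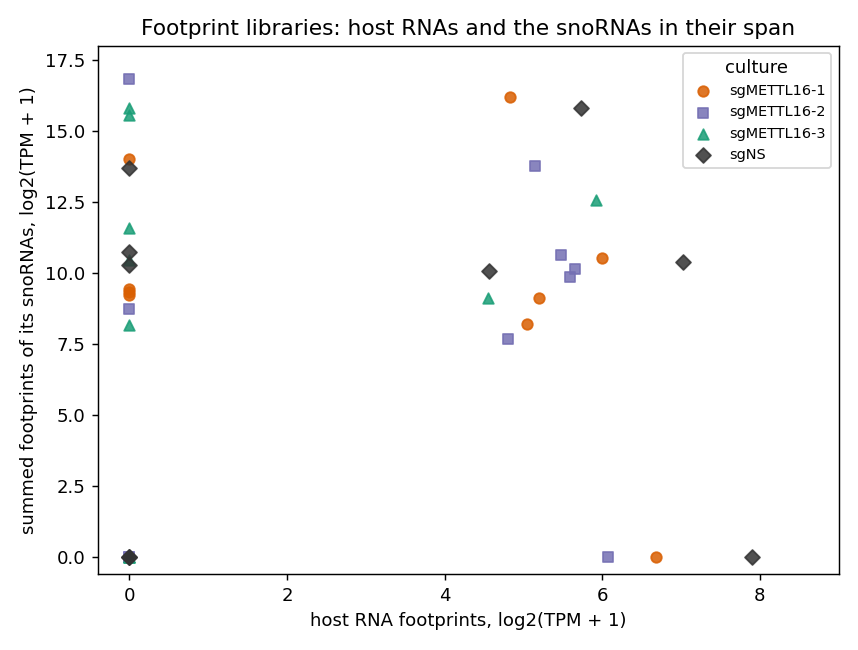
Footprint level of each host RNA (horizontal) and summed footprint level of the snoRNAs in its span (vertical), both as log2(TPM + 1), with 1 point per host and culture; the axes differ in range, and 9 points overlap at the origin. In 14 of 40 points the host is at 0 and its snoRNAs are not, and hosts that are seen have snoRNA sums from 0 to 74680 TPM.

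Between the guides, no listed host passed in the input. The fit centred each library on its median tested gene, and p-values rest on 3 cultures with different guides against 1 control culture, which was assumed to vary like them. The variance came from the intensity trend over all genes, so a host's own spread between cultures did not enter its p. Of 9 tested hosts none was called (3 had an unadjusted p under 0.05), beside 1.25% of 10967 genes called lower, 1.58% called higher and 2.83% in either direction. All 9 estimates lay below 0, with a median of -0.53 against -0.06 over all genes. SNHG6 was lowest at -0.93 (SE 0.37, limma adjusted p = 0.224), followed by SNHG8 at -0.88 (SE 0.38, adjusted p = 0.29), SNHG5 at -0.76 (SE 0.39, adjusted p = 0.458) and SNHG12 at -0.75 (SE 0.37, adjusted p = 0.416). SNHG7 (-0.53), SNHG16 (-0.37), ZFAS1 (-0.22), GAS5 (-0.20) and SNHG1 (-0.11) were nearer to 0 (limma adjusted p from 0.721 to 0.974).

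For SNHG5, SNHG6, SNHG7, SNHG8, SNHG12 and SNHG16 each of the 3 sgMETTL16 cultures was below sgNS after centring. These 6 of 9 stand beside 34.2% of all 10967 genes, and all rest on the same control library. On TPM as deposited, the median of all genes stood at 0.46, and GAS5 (0.33), SNHG1 (0.42), SNHG7 (0.00), SNHG16 (0.16) and ZFAS1 (0.30) were at or above 0. Without sgMETTL16-2, SNHG6 passed (-1.18, limma adjusted p = 0.0282). Among the sgMETTL16 cultures, sgMETTL16-3 had the lowest TPM as deposited for all 9 hosts with input, while its median gene was also lower, at 2.62 against 3.08 and 3.23 on the log2(TPM + 1) scale in the other two and 2.45 in sgNS.

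**Figure D4:**
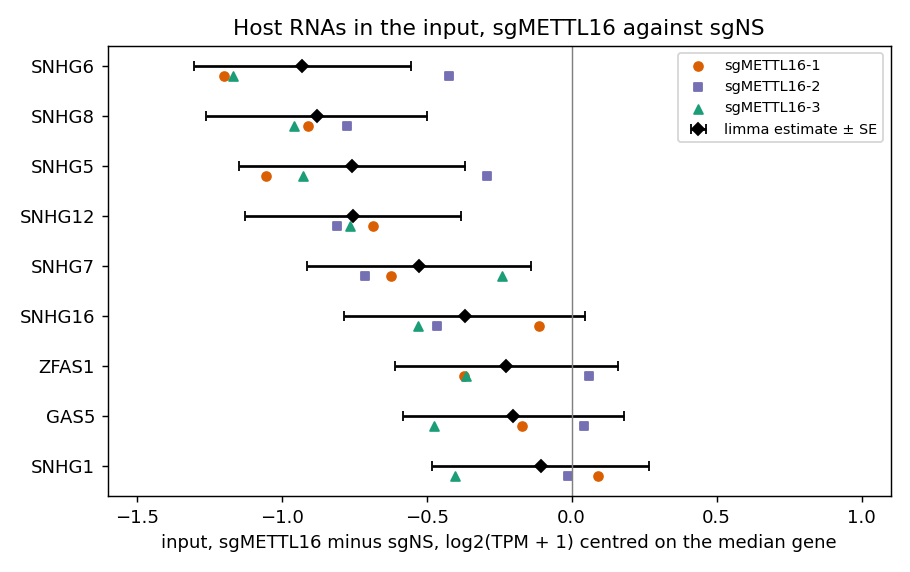
Input difference between sgMETTL16 and sgNS for the 9 hosts with input, on the log2(TPM + 1) scale centred on the median gene; black diamonds are limma estimates with their SE and coloured points are single sgMETTL16 cultures. All 9 estimates lie between -0.93 and -0.11, and none passed the threshold.

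The companion genes gave few calls in the input. None of 13 other host lncRNAs passed by limma (median -0.38, 2 with an unadjusted p under 0.05), SNHG25 coming closest at -1.25 (SE 0.39, limma adjusted p = 0.0505) with 33.9, 33.3 and 22.9 TPM in sgMETTL16 and 49.6 TPM in sgNS. None of 40 protein-coding hosts (median -0.31), of 20 proteins of snoRNP particles and their assembly (median -0.14), of 24 factors of nonsense-mediated decay (median -0.08) or of 9 other lncRNAs (median -0.12) passed either. Of these 5, 3, 1 and 2, in that order, had an unadjusted p under 0.05. Of the snoRNP list, FBL, the methyltransferase of box C/D particles, averaged 69.2 TPM over the inputs, NOP10 61.1, SNU13 55.8 and NOP56 49.9 TPM. Of the decay list SMG5 averaged 36.9 TPM, CASC3 33.9, UPF1, the central helicase, 26.7 and the release factor GSPT1 25.5 TPM.

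Among the snoRNAs of the listed hosts some passed in the input, in both directions within GAS5 and within SNHG1. Of 27 tested, 3 were higher and 5 lower in sgMETTL16, beside 1.58% and 1.25% of all genes and 26.3% and 9.32% of all 236 snoRNAs tested, so calls were frequent among snoRNAs as a class. From GAS5, SNORD44 was at 7.25, 2.30 and 2.00 TPM in sgMETTL16 and 0 in sgNS (limma adjusted p = 6.64e-05), while SNORD74 was at 14.6, 20.04 and 12.1 TPM in sgMETTL16 and 39.7 TPM in sgNS (log2 difference -1.86, limma adjusted p = 0.000146). SNORD75, also from GAS5, was at 2.66, 0 and 0 TPM in sgMETTL16 and 3.97 TPM in sgNS (-2.22, limma adjusted p = 7.08e-12). GAS5 itself was at -0.20. From SNHG1, SNORD22 was at 16.3, 21.2 and 23.7 TPM in sgMETTL16 and 4.45 TPM in sgNS (1.43, limma adjusted p = 0.00866), and SNORD26 at 5.36, 6.24 and 7.09 TPM in sgMETTL16 and 10.3 TPM in sgNS (-1.18, limma adjusted p = 0.0478).

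SNORA61 from SNHG12 was at 26.6, 27.4 and 28.1 TPM in sgMETTL16 and 5.97 TPM in sgNS (1.495, limma adjusted p = 0.00549). Every sgMETTL16 value stood above the sgNS value, but such a separation is common. After centring, all sgMETTL16 cultures were above sgNS for 23.4% of all 10967 genes and below it for 34.2%. SNORD12C from ZFAS1 (-1.81) and SNORD50B from SNHG5 (-1.33) were the remaining lower ones. None of the 8 passed on TPM as deposited, and without sgMETTL16-1 only 1 snoRNA passed. In the fit of all 4 inputs limma took each gene's variance from the trend alone, and the uneven values of SNORD75 over the sgMETTL16 cultures did not enter its p.

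In the footprints no listed host passed between the guides. Of 8 tested none was called (none had an unadjusted p under 0.05, limma adjusted p from 0.567 to 0.695), beside 5.84% of 9297 genes called lower, 0.699% higher and 6.54% in either direction. Of those 608 calls, 607 were of genes listed at 0 on 1 side, and none was left without the intensity trend or without any of the sgMETTL16 cultures. SNHG16 was at 1.11 (SE 0.41) and SNHG5 at -1.56 (SE 0.64), where the median of all genes stood at 0.90, and SNHG16 was at -1.55 when centred on the median gene. An interaction term of guide by library type, which tests the footprint to input ratio, passed in none of 7 tested hosts (none had an unadjusted p under 0.05, limma adjusted p from 0.531 to 0.836), beside 0.075% of 8002 genes called lower, 0.125% higher and 0.2% in either direction. All 16 of those calls were of genes listed at 0 in the footprints of 1 side, and with the culture as a replicate block there were 0. SNHG16 was at 1.56 (SE 0.69) and SNHG5 at -0.70 (SE 0.90) in this test, the steps of 3, 6, 2 and 1 and of 1, 1, 1 and 2 given above being the data behind them.

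SNHG5 and SNHG16 were the hosts above 0 in all 8 libraries. Their log2 differences between footprints and input were 0.50 and -2.84, so their mean profile need not stand for either. Among 4474 genes with a mean of 10 TPM or more, that mean profile was most like HNRNPA3 (Pearson r = 0.91 over 8 libraries). HIST1H3C (0.90), RPL41 (0.89), RPL36 (0.88) and COPS7B (0.87) came next. The 8 libraries share 4 cultures and 2 kinds of preparation, and these values are a description. HNRNPA3 was at 25.9, 29.6 and 29.3 TPM in the sgMETTL16 footprints and 97.8 TPM in the sgNS footprints, and RPL41 at 325, 375 and 411 TPM and 925 TPM. Both were picked for their likeness over these same libraries, so a high sgNS footprint value shared with SNHG5 is not a separate result. SNHG16 did not share it, at 22.6 TPM in the sgNS footprints. The step between footprint values was also 1.89 to 2.73 times larger in sgNS than in the sgMETTL16 libraries.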

How the data were processed

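Per the submitters' processing notes, STAR, with no version named, served for alignment to GRCh38 and RSEM 1.2.31 for quantification. The authors deposited TPM per gene symbol, 1 column per library and not pooled. Of 26830 symbols, 23987 matched RefSeq by name, 1395 through former names and 1448 not at all. Depth per library is unknown, since TPM keeps no read total, and no counting interval was computed. Whether cultures were otherwise independent is not stated, so p-values measure the spread between cultures and guides. In the input fit that spread was taken from the intensity trend over all genes, and a gene's own spread did not enter its p.

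log2(TPM + 1) was tested with limma 3.58.1 (R 4.3.3) and an intensity trend, for genes averaging at least 1 TPM, with Benjamini-Hochberg adjustment over all genes tested and a threshold of 0.05. Such differences are compressed for genes of low TPM. Inputs were centred on the median gene. The other fits divided each library by its median ratio over genes above 0 in all libraries of the fit (1838 for 8 libraries, 1870 for footprints), which keeps values of 0 at 0. The model was tested on simulated data. Input and footprints of a culture are paired by title; deviations of the 3 sgMETTL16 pairs correlated at 0.04, 0.00 and 0.02 over 11233 genes.

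The members and gene lists were chosen with earlier results of these data known. Named genes were the 10 hosts, METTL16, the 4 members of each companion list with the highest mean input, and the 5 genes most like the mean profile of SNHG5 and SNHG16. The snoRNAs past the threshold in the input and those marked in the text were named after their values were seen. The alternatives were other scalings, pseudocounts of 0.1 and 0.5, no filter or a mean of at least 10 TPM, no trend, leaving out each culture, and the culture as a replicate block.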

Additional observations from a re-analysis of the deposited data

How the results depend on the processing

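Among values recomputed for single genes, 528 kept their direction and their side of the threshold, 50 no longer passed, 7 newly passed and 21 changed sign. In footprints against input, the count of called genes (4992) became 1310 when centred on the median tested gene, 10762 with no filter and 2128 for genes averaging at least 10 TPM, and the 4 listed hosts called became 1 (higher) when centred and 2 at the stricter filter. Centred, SNHG1 was at 0.86, SNHG6 at 1.40, EEF2 at 0.40, RACK1 at 1.65, RPL3 at 1.75 and NORAD at 0.18; RACK1 and RPL3 were also at 0.0758 and 0.17 on TPM as deposited and at 0.12 and 0.22 over protein-coding genes. In the input, 310 called genes became 23 on TPM as deposited and 110 to 664 with a culture left out, the listed hosts called ranged from 0 to 1, and the 8 snoRNAs called became 0 on TPM as deposited, 5 over protein-coding genes, 4 at the stricter filter and 1 to 11 with a culture left out. GAS5, SNHG1, SNHG7, SNHG16 and ZFAS1 turned to 0.33, 0.42, 0.0033, 0.16 and 0.30 on TPM as deposited, GAS5, SNHG1 and ZFAS1 to 0.11, 0.23 and 0.087 over protein-coding genes, and SNHG1 to 0.0336 with no filter, ranging from -0.205 to 0.0396 with a culture left out. In the footprints between guides, 608 called genes became 0 when centred, 0 without the trend, 146 at the stricter filter and 0 to 0 with a culture left out, and SNHG16 was at -1.55 when centred. For the footprint to input ratio between guides, 16 called genes became 0 when centred, 522 over protein-coding genes, 589 and 55 with pseudocounts of 0.1 and 0.5, 941 with no filter, 86 at the stricter filter, 0 without the trend, 0 to 0 with a culture left out and 0 with the replicate block, which changed no call of a listed host and gave 4278 called genes in footprints against input. The cause of these shifts was not tested. Depth is unknown, and the steps are not read counts. The number of reads behind each host footprint cannot be told, which limits every footprint result.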
